A study of Drosophila melanogaster with 16 samples.

Results

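The genes described here encode the storage and carrier proteins that the larval fat body secretes into the hemolymph. They are the 3 subunit genes of larval serum protein 1 (Lsp1alpha, Lsp1beta and Lsp1gamma), Lsp2, the fat body protein genes Fbp1 and Fbp2, and apolpp. All 7 were found by gene symbol among the 17559 genes of the tables. RNA came from isolated trachea, the branched airway, of Drosophila melanogaster larvae of the wild-type strain Canton S, a background shared by every group. There were 4 groups of 4 libraries: females after smoke, females kept in air, males after smoke and males kept in air. Smoke was mainstream smoke of 3R4F research cigarettes, delivered at 4 puffs per min for 60 min, and the study asked how the airway transcriptome of each sex differs after it. Whether the replicates are separate groups of animals is not said in the labels, and the p-values below may reflect technical spread alone.

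The fat body is the insect organ that stores nutrients and makes most hemolymph proteins, much as liver and adipose tissue do in mammals. In the growing larva it secretes hexamerins, large proteins such as LSP1 and LSP2 that are later taken back up as a store of amino acids for metamorphosis, and it exports lipid on lipophorin. Hexamerin genes are textbook markers of larval fat body, an organ that fine tracheal branches supply with air.

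All 7 genes were read in every one of the 16 libraries, at levels that differed widely between libraries. The libraries held 15036560 to 23434521 reads over all genes. In CPM (counts per 1e6 reads), the 7 genes together took 1215 to 5732 in smoke-exposed females, 870.1 to 6332 in air-exposed females, 221 to 1719 in smoke-exposed males and 992 to 34527 in air-exposed males. Replicate 3 held the highest sum in each group, and air-exposed male replicate 3 stood alone at the top with 34527 CPM, against 5326 CPM for the next highest air-exposed male. In that library Lsp1beta ranked 5 among all genes by reads. For the 7 genes, the changes after smoke in males and the difference between the sexes are given below with and without this library. In bulk RNA, fewer fat body cells and less RNA per fat body cell cannot be told apart.

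Ordered by the median sum, the groups ran from air-exposed females (4068 CPM) through air-exposed males (3374 CPM) and smoke-exposed females (1442 CPM) to smoke-exposed males (356 CPM). The range of each group overlapped that of its neighbour in this order. Tracheal markers were present throughout: 11 of the 13 genes on that list were matched, none was at 0 across a group, and their sum was 9758 to 12459 CPM in smoke-exposed females, 7160.5 to 11072 CPM in air-exposed females, 11037 to 15293 CPM in smoke-exposed males and 8189 to 12914 CPM in air-exposed males. The labelled tissue was thus represented in every library, with the storage protein transcripts beside it.

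**Figure D1:**
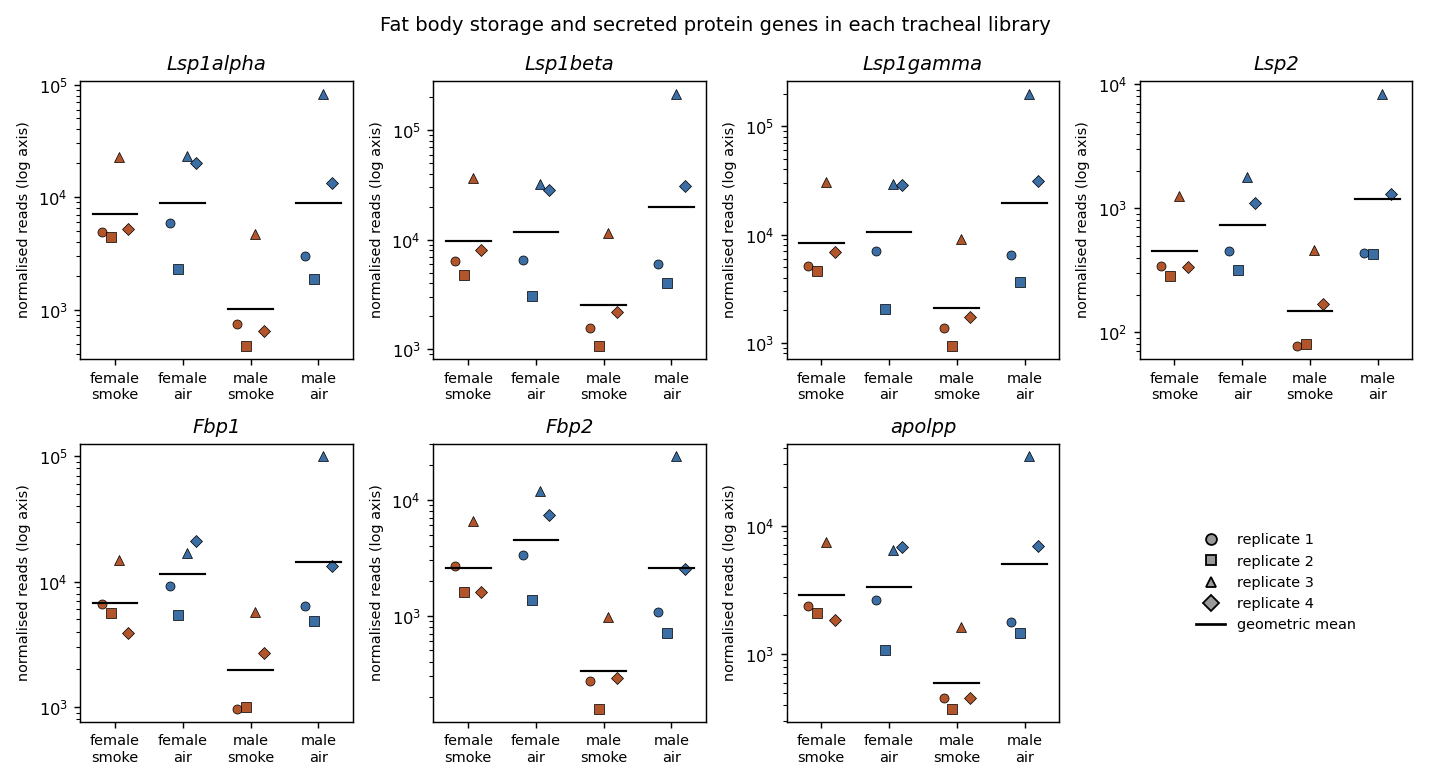
Normalised reads (log axis) of each of the 7 genes in every library, by group; symbols mark the replicate number and black lines the geometric mean of 4 libraries. Smoke-exposed males lie lowest for all 7 genes, replicate 3 is the highest library in all groups except air-exposed females, where replicate 4 is highest for Fbp1 and apolpp, and air-exposed male replicate 3 stands above all other libraries.

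Per kilobase of exon, Lsp1beta and Lsp1gamma had the highest group means in every group, and Lsp2 and apolpp the lowest. In smoke-exposed females Lsp1beta averaged 249 ± 259.6, Lsp1gamma 230.4 ± 233.7 and Lsp1alpha 175 ± 160.4 reads per kilobase, scaled to library depth (RPKM, ± SD, n = 4 libraries in each group). In air-exposed females these 3 genes averaged 342 ± 282, 359 ± 299 and 262 ± 204 RPKM. Fbp2 and Fbp1 averaged 143 ± 102 and 111 ± 65.3 RPKM in smoke-exposed females, against 299 ± 222 and 205 ± 106 RPKM in air-exposed females. The SD was often as large as the mean. It measures a spread between libraries that the genes share, so it cannot tell whether neighbours in this order differ. Within single libraries, Lsp1alpha stood at 0.652 to 0.956 of Lsp1beta in females, as given below. Single libraries also departed from the order of the means. In air-exposed female replicate 1, Fbp2 had 178 RPKM, above Lsp1gamma at 160 and Lsp1beta at 137. Lsp2 and apolpp lay well under the others, at 11.1 ± 8.92 and 14.4 ± 10.6 RPKM in smoke-exposed females and 19.8 ± 14 and 19.4 ± 12.6 RPKM in air-exposed females.

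By group mean, Lsp1beta and Lsp1gamma also led in males and Lsp2 and apolpp were again the lowest. The means of smoke and air lay further apart than in females. In smoke-exposed males Lsp1beta averaged 75.9 ± 90.7, Lsp1gamma 66.8 ± 77.4 and Lsp1alpha 32 ± 38.9 RPKM, against 1222 ± 1919, 1263 ± 1942 and 505 ± 766 RPKM in air-exposed males. Fbp1 averaged 38.6 ± 32.3 RPKM in smoke-exposed males and 470.5 ± 682 RPKM in air-exposed males, and Fbp2 averaged 20.2 ± 17.1 RPKM in smoke-exposed males and 341 ± 537 RPKM in air-exposed males. The air means of males were carried by replicate 3, where Lsp1gamma reached 4149 RPKM and Lsp1beta 4079 RPKM. Over the other 3 air-exposed males, Lsp1beta averaged 269 ± 286, Lsp1gamma 301 ± 321, Lsp1alpha 126 ± 126, Fbp1 131 ± 66.5 and Fbp2 73.7 ± 46.8 RPKM (SD, n = 3).

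In females, the 7 genes did not separate smoke from air. The values below are normalised reads, listed by replicate from 1 to 4. Lsp1alpha, whose product is the alpha subunit of LSP1, had 4871, 4388, 22756 and 5259 in smoke-exposed females, against 5840.0, 2319.7, 23283 and 20000.1 in air-exposed females. Lsp1beta, the beta subunit gene, had 6429, 4806, 36572 and 8118 in smoke-exposed females, against 6587, 3060.2, 32019 and 28685 in air-exposed females. Lsp1gamma, the gamma subunit gene, had 5149, 4646, 30287 and 6922 in smoke-exposed females, against 7014, 2059.8, 29441 and 28663 in air-exposed females. In each case smoke replicate 3 stood beside air replicates 3 and 4, and air replicate 2 was the lowest of the 8 libraries.

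Lsp2, which encodes a separate hexamerin, had 343, 283, 1265 and 336 normalised reads in smoke-exposed females, against 449, 318, 1794 and 1099.9 in air-exposed females. Fbp1, which encodes the receptor that takes LSP1 back into fat body cells and is an ecdysone-induced gene of the late larva, had 6606, 5653, 14845 and 3863 in smoke-exposed females, against 9264, 5434, 16961 and 20898 in air-exposed females. The ranges overlapped, with the highest library in air. Fbp2, a fat body protein gene related in sequence to alcohol dehydrogenase, had 2676, 1604, 6532 and 1587 in smoke-exposed females, against 3342, 1373, 11897 and 7372 in air-exposed females. The gene apolpp, which encodes the apolipoprotein of lipophorin, had 2382, 2072, 7426 and 1840.2 in smoke-exposed females, against 2613, 1067.1, 6475 and 6826 in air-exposed females. For apolpp the highest library was smoke replicate 3 and the lowest air replicate 2.

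With limma (trend, Benjamini-Hochberg adjustment over all genes tested, threshold 0.05), 0 of the 7 genes passed in females, where 7.09% of all 8877 genes tested were called lower, 10.9% higher and 18% in either direction, and 0 had an unadjusted p under 0.05. On the recovered reads, edgeR and DESeq2 also called 0 of 7, where they called 7.34% and 11.3% of all genes lower. In the authors' deposited table for females, the adjusted p-values of the 7 genes were 0.268 to 0.851. The groups overlapped for 7 of 7, while 10.8% of all genes had all 4 smoke libraries below all 4 air libraries. The log2 changes, on the log2(value + 1) scale, ran from -0.79 ± 0.712 (SE) for Fbp2 to -0.22 ± 0.67 for apolpp, with a median of -0.33 beside -0.018 over all genes tested, and limma adjusted p-values of 0.343 to 0.875. The 95% interval of Lsp1beta reached from -2.31 to 1.81 on the log2 scale, so both falls and rises lay within it. For the 3 LSP1 genes and apolpp the direction itself rested on single libraries, while Lsp2, Fbp1 and Fbp2 kept a negative estimate whichever library was left out. The columns of replicates 1 and 2 are named in a shorter style than those of replicates 3 and 4. Without air replicate 3 the log2 changes of the 3 LSP1 genes and apolpp were 0.10 to 0.23, and within replicates 1 and 2 they were 0.31 to 0.41. Within replicates 3 and 4 the log2 changes of all 7 genes were -1.54 to -0.81 (limma adjusted p 0.227 to 0.488), and with array weights, which count deviating libraries less, they were -1.48 to -0.98, with Fbp1 alone called, where 32.7% of all genes were.

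In males, the estimates for all 7 genes were 7.22 to 9.31 times lower after smoke on the log2(value + 1) scale. None passed the threshold of limma in the main fit, which did not pair replicates. Lsp1alpha had 745, 472, 4716 and 651 normalised reads in smoke-exposed males, against 2999.9, 1889, 83053 and 13227 in air-exposed males. Lsp1beta had 1559, 1059.9, 11561 and 2195 in smoke-exposed males, against 6013, 4018, 215954 and 30658 in air-exposed males. Lsp1gamma had 1361, 926, 9082 and 1729 in smoke-exposed males, against 6520.1, 3664, 199835 and 31231 in air-exposed males. For each LSP1 gene, smoke replicate 3 lay above air replicates 1 and 2, and the other smoke libraries lay below every air library.

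Lsp2 had 76.7, 80.1, 463 and 169.8 normalised reads in smoke-exposed males, against 438, 425, 8416 and 1293 in air-exposed males. Fbp1, the LSP1 receptor gene, had 964, 999, 5764 and 2709 in smoke-exposed males, against 6374, 4855, 99437 and 13314 in air-exposed males. Again smoke replicate 3 was the highest smoke library and reached into the air range, and the other 3 lay below every air library. Fbp2 had 275, 156, 972 and 288 in smoke-exposed males, against 1067.1, 704, 23681 and 2535 in air-exposed males. The lipophorin gene apolpp had 457, 373, 1628 and 453 in smoke-exposed males, against 1782, 1469, 34536 and 6945 in air-exposed males. For Fbp1, Fbp2 and apolpp, smoke replicate 3 overlapped the air range only through air replicate 2.

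The groups of males thus overlapped for all 7 genes, in each case through smoke replicate 3. Compared by replicate number, each smoke library lay below the air library of the same number for all 7 genes. The share of all genes with that pattern is not given, and the labels do not say that replicate numbers mark a shared batch. All 4 smoke libraries lay below all 4 air libraries for 9.11% of all genes tested and for 0 of the 7. With smoke replicate 3 set aside, the other 3 smoke libraries lay below all 4 air libraries for 7 of 7 genes, a pattern that 12.4% of all 8705 genes tested showed; that library was set aside after its values had been seen.

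In the same limma test, 0 of the 7 genes passed in males, where 4.64% of all 8705 genes tested were called lower, 8.89% higher and 13.5% in either direction. All 7 had an unadjusted limma p under 0.05, as many other genes did. The highest of these, 0.0497 for Lsp1beta, ranked 2737 by p among the 8705 genes tested. All 14 muscle markers tested were also lower in males at an unadjusted p under 0.05. The log2 change was largest for Lsp1gamma, at -3.22 ± 1.27 (SE), and smallest for Fbp1, at -2.85 ± 0.996, with a median over the 7 genes of -3.00 beside -0.0061 over all genes tested. Adjusted p-values from limma ran from 0.0761 for apolpp to 0.158 for Lsp1beta. EdgeR called 0 of 7, with log2 changes of -4.24 to -3.61 and adjusted p-values of 0.0624 to 0.11, where it called 3.97% of all genes lower. DESeq2 on the same reads called 7 of 7 lower, with log2 changes of -4.23 to -3.59 and adjusted p-values of 0.00217 to 0.0166, where it called 10.2% of all genes lower. In the authors' deposited table the 7 genes had log2 fold changes of -1.46 to -2.01 in males with adjusted p-values of 0.00278 to 0.0202. The share of all genes that passed in that table is not given here. The authors' fold changes are on a smaller scale than the log2 ratio of the group means of the deposited values, smoke over air. That ratio was -4.20 to -3.57 for the same genes, so the authors' fold changes cannot be set beside the other estimates. With array weights the log2 changes from limma were -2.38 to -2.07, and 0 of 7 were called, where 17.3% of all genes were. The call and the size of the change therefore depended on the method.

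Without air replicate 3, the median log2 change of the 7 genes in males was -2.05 and limma called none of them (adjusted p 0.094 to 0.265). Without replicate 3 of both smoke and air, a choice made after seeing the data, the median was -2.60 and limma called 4 of 7, where 6.57% of all genes were called in either direction. Within replicates 1 and 2 the median was -2.06 and 3 of 7 genes were called, where 1.68% of all genes were. Within replicates 3 and 4 the median was -4.01, with adjusted p-values of 0.19 to 0.249. With the naming style as a term over all 8 male libraries, 7 of 7 were called (limma adjusted p 0.0176 to 0.0443), where 22.6% of all genes were. With the replicate number as a block, 7 of 7 were called (limma adjusted p 0.00484 to 0.0119), where 32.3% of all genes were. The same block called 0 of the 7 in females, where 28.2% of all genes were called. The labels do not say whether replicate numbers mark a shared batch.

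**Figure D2:**
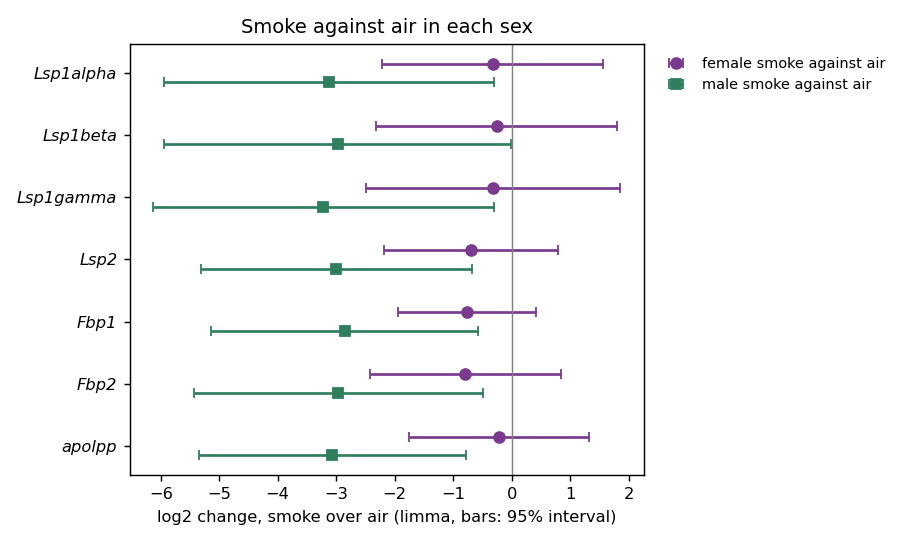
Log2 change of each gene, smoke over air, from limma on log2(value + 1), with 4 smoke and 4 air libraries per sex; points are estimates and bars 95% intervals before any adjustment. In females all 7 estimates lie between -0.79 and -0.22 with intervals that include 0, and in males all 7 lie between -3.22 and -2.85 with intervals below 0.

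The female minus male difference in log2 change was 2.09 to 2.90 for the 7 genes, with a median of 2.72 beside -0.012 over all 8606 genes tested. In limma, 0 of 7 differed between the sexes after adjustment (adjusted p 0.34 to 0.536), where 2% of all genes were called higher, and 1 of 7, apolpp, had an unadjusted p under 0.05 (difference 2.85, 95% interval 0.088 to 5.61). By unadjusted p, apolpp ranked 1114 among the 8606 genes tested. EdgeR and DESeq2 also called 0 of 7, where they called 1.89% and 3.06% of all genes higher. Without air-exposed male replicate 3 the differences were 1.11 to 1.92, with a median of 1.58 (limma adjusted p 0.5 to 0.781), and with array weights they were 0.78 to 1.34. With the replicate block, limma called 1 of 7, Lsp2 (adjusted p 0.0256), where 7.77% of all genes were called. Within replicates 1 and 2 it also called Lsp2 alone (adjusted p 0.0318), where 0.709% of all genes were called. A difference between the sexes in the smoke response was therefore not shown for these genes in the main fit, and the call of Lsp2 depended on the setting.

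The 7 genes varied together from library to library. After centring each group, the Pearson correlation of log2(value + 1) over the 16 libraries was 0.93 to 1.00 across the 21 pairs of genes, and 0.89 to 0.99 over the 15 libraries without air-exposed male replicate 3. These values are a description: the points of a pair share a library, and replicate 3 is the highest in most groups. The spread itself was large, with the highest library of a group at 3.84 to 7.61 times the lowest in smoke-exposed females, 3.85 to 14.3 times in air-exposed females, 4.36 to 10.9 times in smoke-exposed males and 19.8 to 54.5 times in air-exposed males.

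Proportions of the genes within a library do not depend on how the libraries or the 2 sexes' tables were normalised. The ratio of reads per kilobase to Lsp1beta, a choice made after seeing the data, was computed in each library. Lsp1alpha stood at 0.787 ± 0.109 of Lsp1beta in females and 0.447 ± 0.0676 in males (SD, n = 8 libraries per sex), 1.77 times higher in females. The ranges were 0.652 to 0.956 in females and 0.311 to 0.522 in males, with no overlap. The two-sided exact permutation p was 0.000155, the smallest that 8 against 8 can give, and 0.000466 after Benjamini-Hochberg adjustment over 6 ratios. As background, Lsp1alpha lies on the X chromosome and is a textbook example of an X-linked fly gene that is not dosage compensated in males, while Lsp1beta (chromosome arm 2L) and Lsp1gamma (3L) are autosomal.

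Fbp2, on chromosome arm 2L, stood at 0.867 ± 0.307 of Lsp1beta in females and 0.347 ± 0.103 in males, 2.45 times higher in females (n = 8 per sex, the same exact p of 0.000155 and adjusted p of 0.000466). The lowest female library, at 0.457, lay just above the highest male library, at 0.454. The ratio of Fbp2 also differed between the naming styles: it was 1.09 ± 0.185 in females and 0.432 ± 0.0374 in males for replicates 1 and 2, and 0.642 ± 0.224 in females and 0.261 ± 0.0592 in males for replicates 3 and 4 (n = 4 each). The female excess was thus present within each style. Within replicates 1 and 2, Lsp1alpha stood at 0.868 ± 0.0866 in females and 0.495 ± 0.0232 in males, and within replicates 3 and 4 at 0.705 ± 0.0496 in females and 0.398 ± 0.0617 in males. With 4 libraries against 4 the smallest exact p is 0.0286, and 0.0857 was the adjusted p of Lsp1alpha in each such subset.

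The other 4 ratios did not differ between the sexes beyond their spread. Lsp1gamma stood at 0.976 ± 0.137 of Lsp1beta in females and 0.998 ± 0.114 in males (exact permutation p 0.707, n = 8 per sex). Lsp2 stood at 0.0631 ± 0.0246 in females and 0.0696 ± 0.0266 in males (exact p 0.604, n = 8 per sex). Fbp1 and apolpp had adjusted p-values of 0.707 and 0.608, with Fbp1 at 0.746 ± 0.39 in females and 0.64 ± 0.271 in males and apolpp at 0.0706 ± 0.022 in females and 0.0596 ± 0.0198 in males. Between smoke and air, 0 of 12 ratio comparisons passed adjustment and 1 had an exact permutation p under 0.05, the smallest possible at 4 against 4 (adjusted 0.343). That 1 was Lsp1gamma in males, at 0.912 ± 0.0551 of Lsp1beta in smoke-exposed males and 1.08 ± 0.0895 in air-exposed males (SD, n = 4). A single ratio of the 12 could not pass adjustment at this size, so the proportions can be called neither changed nor unchanged by smoke.

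**Figure D3:**
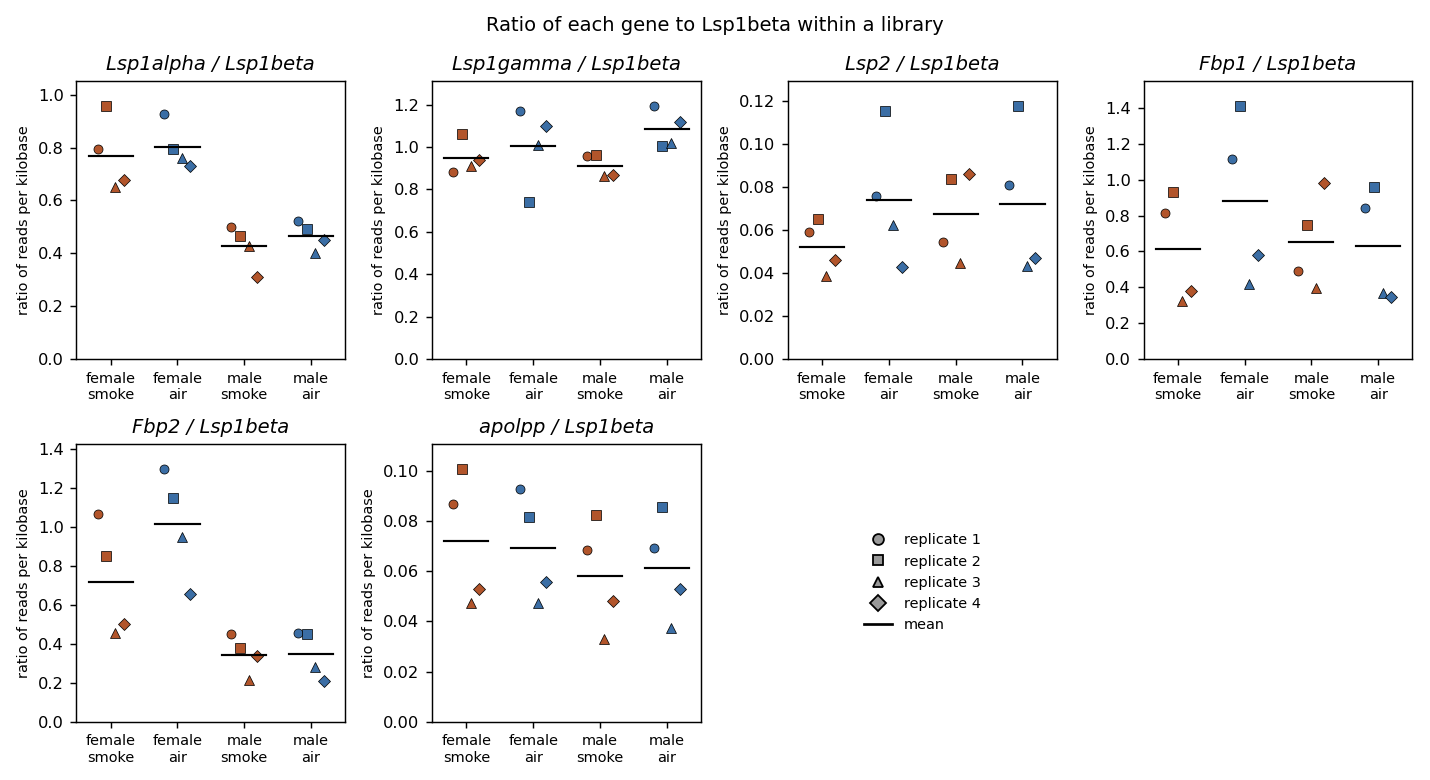
Ratio of reads per kilobase of each of 6 genes to Lsp1beta within each library, by group (linear axis from 0); symbols mark the replicate number and lines the mean of 4 libraries. Lsp1alpha and Fbp2 are higher in all 8 female libraries than in all 8 male libraries, and the other 4 ratios overlap between the sexes.

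The 10 other genes whose levels were most like the 7, by mean Pearson correlation over the 16 libraries after centring each group, were Cyp4d1 (0.98), Tps1, fon, CG6912, Gbp2, CG42846, Hao, CG34166, CG7920 and Gnmt (0.96), out of 8212 genes with a mean of at least 20 in each sex. The median over all these genes was 0.022, and 127 of them (1.55%) exceeded 0.9. In females the log2 changes of the 10 were -1.04 ± 0.881 for Gnmt to 0.12 ± 0.188 for CG7920 (limma adjusted p 0.371 to 0.943), and in males they were -3.69 ± 1.31 for Gnmt to -0.066 ± 0.23 for CG7920 (limma adjusted p 0.0648 to 0.878).

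A list of 17 other fat body genes, of which 16 were matched and 14 tested, behaved unevenly. In females 2 were called higher and 0 lower, with a median log2 change of -0.027 and 3 unadjusted p-values under 0.05, all higher. In males 1 was called lower and 0 higher, with a median of -1.23, and 5 had an unadjusted p under 0.05, all lower. Tsf1, the hemolymph iron carrier transferrin, made up 89.9 to 97.9% of the reads of the list and is also made by other tissues. Without Tsf1, the list summed to 470 to 512 CPM in smoke-exposed females and 442 to 528 CPM in air-exposed females. In males the sums were 398 to 429 CPM after smoke and 455 to 953 CPM in air. The highest library of this sum was replicate 3 in every group except smoke-exposed males, where it was replicate 2. Pepck1 was at 0 in all 16 libraries. Adh reached at most 1.16 normalised reads in smoke-exposed females, 2.21 in air-exposed females, 1.32 in smoke-exposed males and 15.3 in air-exposed males. After centring each group, 14 genes of the list with a mean of at least 20 in each sex were correlated with the 7 genes. Their mean Pearson correlation ran from -0.61 for NLaz to 0.96 for Gnmt, with a median of 0.75.

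The list's member called in both sexes was Lsd-1, which encodes perilipin 1, a protein on the surface of lipid droplets. It had 1329.9, 1131, 1347 and 934 normalised reads in smoke-exposed females, against 523, 262, 494 and 485 in air-exposed females (log2 change 1.46 ± 0.232, limma adjusted p 0.00532). In smoke-exposed males it had 68.9, 85.2, 255 and 66.7, against 677, 437, 3157 and 775 in air-exposed males (log2 change -3.19 ± 0.658, limma adjusted p 0.0196). All 4 smoke libraries lay above all 4 air libraries in females and below them in males. In males 9.11% of all genes tested had all 4 smoke libraries below all 4 air libraries. The share of all genes with smoke above air in females is not given. The female minus male difference of Lsd-1 was 4.65 ± 0.748 (limma adjusted p 0.00251). The lipase gene bmm, whose product breaks down stored triglyceride, was the second called higher in females (log2 change 1.47 ± 0.289, limma adjusted p 0.0117), with 406 ± 57.2 normalised reads in smoke-exposed females and 156 ± 70.4 in air-exposed females (SD, n = 4).

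Of 7 transcription factor genes with known roles in fat body, 1 was called higher in females, and 1 higher and 1 lower in males. CrebA was the gene called higher in males. That call was lost in 7 of the 8 fits that left out 1 male library, with limma adjusted p up to 0.118. The gene svp, a nuclear receptor of the COUP-TF family, had 205, 159, 255 and 103 normalised reads in smoke-exposed females, against 136, 54.4, 109.7 and 119 in air-exposed females (log2 change 0.78, limma adjusted p 0.169). In smoke-exposed males svp had 10.7, 10.2, 52.9 and 9.37, against 89.2, 114, 455 and 153 in air-exposed males (log2 change -3.32 ± 0.671, limma adjusted p 0.0181). Its female minus male difference was 4.10 ± 0.807 (limma adjusted p 0.0125). Hnf4, a nuclear receptor for lipid metabolism, rose in females, to 1324 ± 75 after smoke against 842 ± 52.7 in air (SD, n = 4; log2 change 0.65, limma adjusted p 0.00151). The calls of Lsd-1 and svp in males were lost without smoke replicate 1 (adjusted p 0.064 and 0.0601) and without smoke replicate 4 (adjusted p 0.0535 and 0.0505), with the log2 changes still at -3.16 to -3.00.

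**Figure D4:**
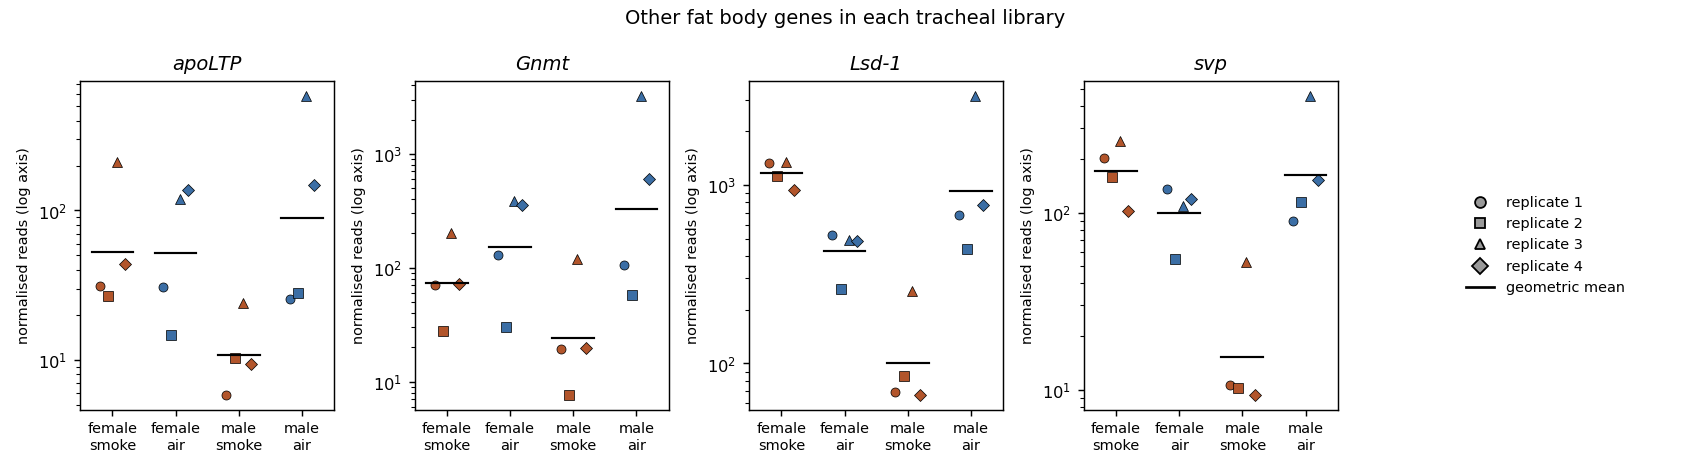
Normalised reads (log axis) of apoLTP, Gnmt, Lsd-1 and svp in every library, by group; symbols mark the replicate number and lines the geometric mean of 4 libraries. Lsd-1 lies higher after smoke in females and lower after smoke in males, with no overlap in either sex, apoLTP and Gnmt overlap between smoke and air in females, and air-exposed male replicate 3 is the highest library of each gene.

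Lipophorin is loaded and taken up by other proteins, and 8 of their genes were tested. In females their limma adjusted p-values were 0.288 to 0.995. The gene apoLTP, which encodes the lipid transfer particle apolipoprotein and is also made by fat body, had a log2 change of 0.0082 in females and -2.94 in males (limma adjusted p 0.0832). Mtp, which assembles lipoproteins, had -0.40 in males (limma adjusted p 0.0804), and the lipophorin receptor genes LpR1 and LpR2 had -0.22 and -0.13. Npc1a, a sterol transporter, was called lower in males (log2 change -0.43 ± 0.107, limma adjusted p 0.0363), with 2968 ± 378 normalised reads in smoke-exposed males and 3992 ± 345 in air-exposed males (SD, n = 4). That call was lost in 6 of the 8 fits that left out 1 male library, with limma adjusted p up to 0.0847. The hexamerin-related prophenoloxidase genes PPO2 and PPO3 had limma adjusted p-values of 0.832 and 0.683 in females and 0.169 and 0.77 in males.

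Storage protein genes, Fbp1 above all, answer to ecdysone, the steroid that times moulting. Of 18 tested genes of the ecdysone response, 3 were called higher and 1 lower in females, and 5 higher and 1 lower in males. EcR, the ecdysone receptor, had 9269 ± 974 normalised reads in smoke-exposed females and 5870.3 ± 577 in air-exposed females (SD, n = 4; log2 change 0.66 ± 0.105, limma adjusted p 0.00532), and 9600.2 ± 796 in smoke-exposed males and 6385 ± 510.0 in air-exposed males (log2 change 0.59 ± 0.0886, limma adjusted p 0.00571). Its partner usp was called higher in both sexes (log2 change 0.34 in females and 0.33 in males), but each call was lost in 6 of the 8 fits that left out 1 library, with limma adjusted p up to 0.0899 in females and 0.0916 in males. Cyp18a1, an enzyme that inactivates ecdysone, rose in males (log2 change 2.6 ± 0.568, limma adjusted p 0.0238), a call lost without smoke replicate 1, smoke replicate 3 or air replicate 1 (limma adjusted p up to 0.0744). Kr-h1, a juvenile hormone response gene, also rose in males (log2 1.28 ± 0.176, limma adjusted p 0.00393). ImpE1 was the gene called lower in females, with log2 changes of -2.51 to -1.47 leaving out single libraries. Hr38 was called higher in females (0.95 to 1.49 leaving out single libraries). Each of these 2 calls was lost in 6 of the 8 fits that left out 1 library (limma adjusted p up to 0.118 for ImpE1 and 0.0772 for Hr38). The median over the list was 0.34 in females and 0.15 in males, beside -0.018 in females and -0.0061 in males over all genes tested.

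Markers of other tissues varied as well; where their RNA came from was not tested. The median log2 change of 14 muscle markers was -1.14 in females, with limma adjusted p-values of 0.182 to 0.641, and -2.63 in males, where 5 were called lower. Their sum was 1227 to 5539 CPM in smoke-exposed females, 685 to 11842 CPM in air-exposed females, 449 to 2881 CPM in smoke-exposed males and 2427 to 11590.2 CPM in air-exposed males. All 14 muscle markers had negative estimates in both sexes, as did the 7 genes, and the highest library of the muscle sum was replicate 3 in every group except smoke-exposed males, where it was replicate 2. Hemocyte markers summed to 900.0 to 1399 CPM in smoke-exposed females and 552 to 1597 CPM in air-exposed females, with 1 of 9 called higher, and to 335 to 738 CPM in smoke-exposed males and 819 to 1537 CPM in air-exposed males, with 1 of 9 called lower.

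Salivary gland markers summed to 3.56 to 12.9 CPM in smoke-exposed females and 65.4 to 344 CPM in air-exposed females, and 8 of 9 tested were called lower. In smoke-exposed males they summed to 4.13 to 35.9 CPM. In air-exposed males they reached 7785 CPM in replicate 3, the library with the highest storage protein signal, against 12.7 to 36.2 CPM in the other 3. Midgut markers summed to 0.329 to 34.9 CPM in smoke-exposed females and 2.09 to 398 CPM in air-exposed females, and to 0.787 to 77 CPM in smoke-exposed males and 9.8 to 39.7 CPM in air-exposed males. Of 3 midgut markers tested, limma called 0 in either sex, with median log2 changes of -3.65 in females and -1.56 in males and an unadjusted p under 0.05 for 1 in females and 0 in males. The highest library of the midgut sum was replicate 3 in air-exposed females and in smoke-exposed males. It was replicate 1 in smoke-exposed females and replicate 4 in air-exposed males, where replicate 3 held 9.84 CPM. The part of these other tissues in the values of the 7 genes was not tested.

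**Figure D5:**
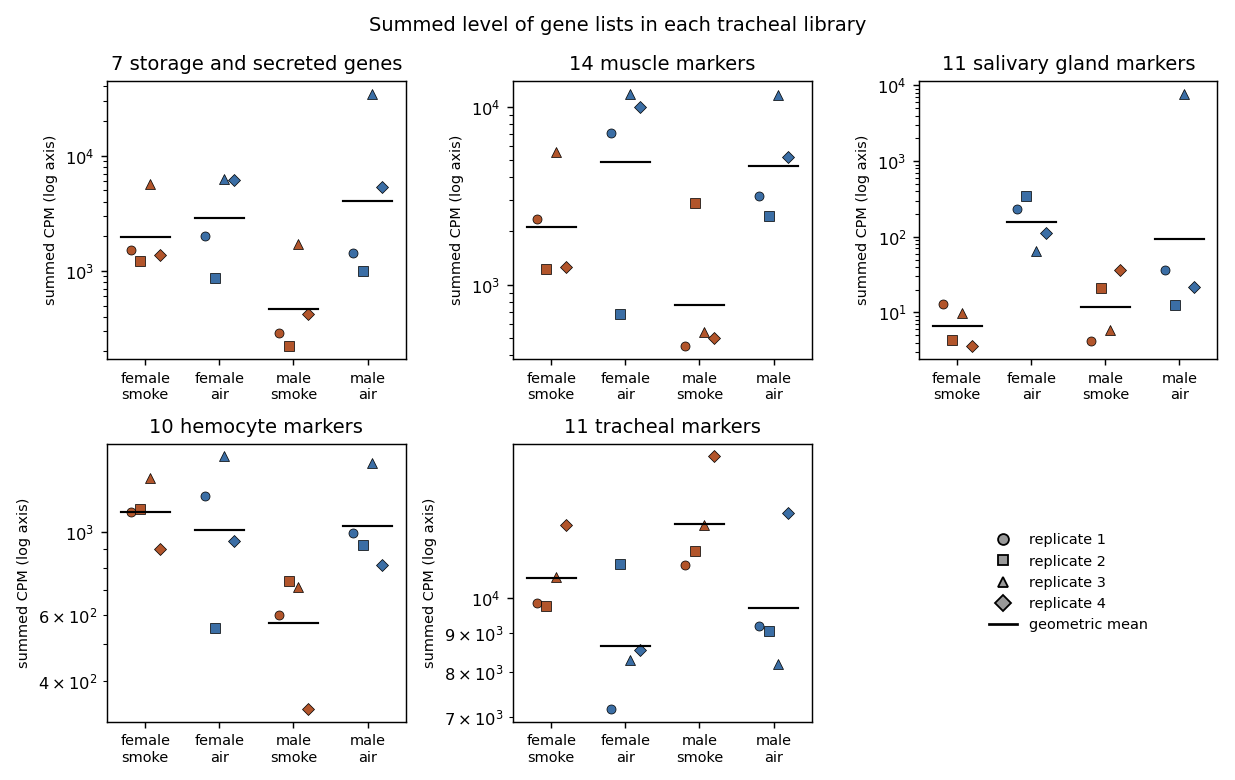
Summed CPM (log axis) of the 7 storage and secreted protein genes and of marker lists for muscle, salivary gland, hemocytes and trachea in every library, by group; symbols mark the replicate number and lines the geometric mean of 4 libraries. Air-exposed male replicate 3 holds both the highest storage protein sum, 34527 CPM, and the highest salivary gland sum, 7785 CPM, and tracheal markers vary least.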

How the data were processed

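Per the submitters' processing notes, STAR 2.6.0c and DESeq2 1.22.2 were used. The only build those notes name, hg38, is human, while the tables carry fly gene identifiers, so no coordinates are given. The sources used here do not state the counting tool, strand setting or filters. Without strand, reads of Lsp2 and an antisense RNA, of apolpp and Zyx, and of Fbp2 and its neighbour CG42847 cannot be separated where they overlap. Values are the normalised signal that the authors deposited, 1 table per sex, which from the values are counts scaled by 1 size factor for each library. All values came out as whole reads within 0.01 read, which recovered size factors of 0.75 to 1.3. The log2 fold changes and adjusted p-values (FDR) the authors deposited were used only where named, and the test score beside them not at all.

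Smoke was compared with air within each sex by limma 3.58.1 (R 4.3.3) with a mean-variance trend on log2(value + 1), keeping genes that reached 10 in 4 or more of 8 libraries, with two-sided tests and Benjamini-Hochberg adjustment. The female minus male difference was fitted over the 16 libraries. A log2 change on this scale understates that of low genes. EdgeR 4.0.16 and DESeq2 1.42.0 on recovered reads, other filters, pseudocounts, scalings, array weights, a replicate block, the naming style and left-out libraries were alternatives. Level comparisons between genes used reads per kilobase of exon from the BDGP6 annotation, release 6.54. Ratios between sexes were compared by exact permutation tests (scipy 1.17.1). The fits within each sex were checked on simulated counts drawn independently for each library. That check does not cover a library that stands apart from its group, nor the female minus male difference. Depth was 15036560 to 23434521 reads, and counting error is largest for genes with few reads.

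The genes, lists and alternatives were chosen with earlier results of these data known. Named were the 7 genes, up to 4 called genes per list and fit by adjusted p, the 10 genes most like the 7, and, chosen after their values were seen, apoLTP, Mtp, LpR1, LpR2, Tsf1, Pepck1, Adh, NLaz, PPO2 and PPO3. Over all 24 pairs of libraries within a group, counts differed beyond sampling noise (chi-square over degrees of freedom of 23.8 or more), and none was a copy.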

Additional observations from a re-analysis of the deposited data

Results flagged for a closer look

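In groups of 4, a library was singled out where its gap to the next library took up nearly the whole range of the group. Chance meets this rule in about 1 in 20 groups if values are normally distributed, but it was applied here to values without log transformation. The rule was met by 17 of 28 sets of 4 values of the 7 genes, all through replicate 3. These sets are not independent, because the 7 genes varied together over the same libraries, and no share over all genes is given. The 17 of 28 therefore cannot be set against 1 in 20 and only describe where replicate 3 lay. In smoke-exposed females, replicate 3 stood apart at 22756 normalised reads for Lsp1alpha, 36572 for Lsp1beta, 30287 for Lsp1gamma, 1265 for Lsp2 and 7426 for apolpp. In smoke-exposed males, replicate 3 stood apart at 4716 for Lsp1alpha, 11561 for Lsp1beta, 9082 for Lsp1gamma, 972 for Fbp2 and 1628 for apolpp. In air-exposed males, replicate 3 stood apart for all 7 genes, at 83053 for Lsp1alpha, 215954 for Lsp1beta, 199835 for Lsp1gamma, 8416 for Lsp2, 99437 for Fbp1, 23681 for Fbp2 and 34536 for apolpp.

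The summed CPM of the 7 genes stood apart in replicate 3 of smoke-exposed females (5732 CPM), of smoke-exposed males (1719 CPM) and of air-exposed males (34527 CPM). Among other lists, muscle markers stood apart in smoke-exposed male replicate 2 (2881 CPM), salivary gland markers in air-exposed male replicate 3 (7785 CPM), and midgut markers in smoke-exposed female replicate 1 (34.9 CPM), smoke-exposed male replicate 3 (77 CPM) and air-exposed male replicate 4 (39.7 CPM). Lsd-1 stood apart in smoke-exposed male replicate 3 (255 normalised reads) and air-exposed male replicate 3 (3157), and at the low end in air-exposed female replicate 2 (262). For svp, smoke-exposed male replicate 3 stood apart at 52.9.

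The smoke response differed between females and males in limma for Lsd-1 (female minus male log2 change 4.65), svp (4.10) and Hnf4 (0.56). In Hnf4 the change was 0.65 in females and 0.09 in males, and the call of its difference was lost in 8 of 30 alternatives, 5 of which left out 1 library (smoke-exposed female replicate 3 or 4, air-exposed female replicate 4, or air-exposed male replicate 1 or 4; limma adjusted p 0.0501 to 0.0563).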

How the results depend on the processing

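In females, the count of the 7 genes called was 0 in the main test, 1 (Fbp1) under array weights, where 32.7% of all genes were called, and 0 to 0 leaving out single libraries. In males it was 0 and moved to 7 with DESeq2, where 10.2% of all genes were called lower. It was 7 with the replicate block (32.3% of all genes called in either direction) and 7 with the naming style as a term (22.6%). It was 3 within replicates 1 and 2 (1.68%). Without replicate 3 of smoke and air, an alternative chosen after seeing the data, it was 4 (6.57%). Leaving out single male libraries, it was 0 to 0. For the female minus male difference it was 0, with 1 (Lsp2) under the replicate block, where 7.77% of all genes were called, 1 (Lsp2) within replicates 1 and 2, where 0.709% were, and 0 to 0 leaving out single libraries. The causes were not tested.

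All 7 log2 changes stayed negative in males under every alternative run. In females they reversed within replicates 1 and 2 for Lsp1alpha (0.33), Lsp1beta (0.31), Lsp1gamma (0.36) and apolpp (0.41). Leaving out single female libraries, the log2 changes ran from -0.97 to 0.14 for Lsp1alpha, -0.90 to 0.23 for Lsp1beta, -1.10 to 0.17 for Lsp1gamma and -0.76 to 0.13 for apolpp; the reversals came without air replicate 3 or 4 and, for Lsp1beta, without smoke replicate 2.

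The Lsp1alpha to Lsp1beta ratio, log2 females minus males, was 0.82. It was 0.78 in air alone, 0.86 in smoke alone, 0.80 within replicates 1 and 2 and 0.84 within replicates 3 and 4, where 4 libraries against 4 cannot pass adjustment unless several ratios reach the smallest p, and 0.75 to 0.86 leaving out single libraries. Ratios with no sex difference changed sign: Lsp2 in air alone (0.067), Lsp1gamma in smoke alone (0.053), within replicates 3 and 4 (0.038) and leaving out single libraries (-0.075 to 0.019), and Fbp1 in smoke alone (-0.15) and within replicates 3 and 4 (-0.18).

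The main fit did not pair replicates, because the labels do not say that replicate numbers mark a shared batch or day. Not every same-numbered pair of libraries correlated either. Deviations of same-numbered smoke and air libraries correlated at -0.098 to 0.42 in females and 0.038 to 0.46 in males, and 3 of 4 in each sex correlated best with their own number. Column names of replicates 3 and 4 end in serial numbers that lie close together within each replicate number across all groups. What these serial numbers mark is not stated, so whether the paired or the unpaired fit is the proper one cannot be settled here. With the replicate block, limma adjusted p-values of the 7 genes were 0.117 to 0.75 in females and 0.00484 to 0.0119 in males, where 32.3% of all genes were called in either direction (13.5% without the block), with the log2 changes as in the main fit. Over all settings the count of genes called in the whole table ran from 12 to 2906 in females, 11 to 2816 in males and 1 to 669 for the difference. Depth did not limit the 7 genes, whose lowest value was 79 reads.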
